A study of Mus musculus with 14 samples.

Results

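The genes described here were 39 mouse genes of fatty acid and triglyceride metabolism, taken as a list of symbols out of the 55414 genes of a count table. The list had 40 entries because Pparg stood in it more than once, and its members were sorted into roles by what their products do. By role they were 4 genes of fatty acid synthesis, 6 elongases, 4 desaturases, 5 genes of uptake, carriage and activation, 7 of triglyceride synthesis and storage, 3 of lipolysis, 7 of mitochondrial oxidation and 3 transcription factors. Each member was matched by its Ensembl identifier and had at least 1 count in every library.

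As background, cells build fatty acids from citrate-derived acetyl-CoA, and elongases and desaturases of the endoplasmic reticulum then lengthen the chains and add unsaturated bonds. Fatty acids are esterified to triglyceride and kept in lipid droplets, released again by lipases, or carried into mitochondria by the carnitine shuttle and oxidised. Granulosa cells (GCs) surround the oocyte in the ovarian follicle, and lipid stores and fatty acid oxidation in the follicle are known for their part in oocyte maturation.

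GCs had been taken from antral follicles of adult female mice on a chow diet, and RNA-seq libraries were made from them in 4 groups. The db/db group (4 libraries) was homozygous for the Lepr mutation of strain B6.BKS(D)-Leprdb/J, through which the long form of the leptin receptor is lost, and CT db (4 libraries) were its lean littermates. The ob/ob group (3 libraries) was homozygous for the Lep mutation of strain B6.Cg-Lepob/J, through which leptin itself is lost, and CT ob (3 libraries) were its lean littermates. The labels give the controls as +/+, whereas their names in the table begin with het or obHet, and which holds was not settled. Both mutations act in the whole animal and make it obese, so effects within GCs and effects of obesity cannot be told apart in them. The models are separate strains, both named as B6 congenics, and strain or colony and model cannot be told apart where CT ob is set against CT db. Follicles were opened with a needle and oocytes were stripped of their GCs by pipetting, with no sorting step. Captured polyadenylated RNA was amplified as cDNA, without unique molecular identifiers, and the floors given below therefore cover counting error only.

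Library totals ran from 3624237 to 4840714 counts in CT db (median 3731548.5), from 2204686 to 3059777 in db/db (median 2361740.5), from 3664219 to 4847166 in CT ob (median 3762905) and from 5306632 to 8367593 in ob/ob (median 6907152). Levels are given as TMM-scaled CPM, in which library totals are scaled by the trimmed mean of M-values. A floor of 3 counts corresponded to 0.359 CPM in the deepest library and to 1.36 CPM in the shallowest. The libraries are listed in a constant order, which is het_37, het_51, het_69 and het_75 for CT db, HOM_24, HOM_53, HOM_68 and HOM_81 for db/db, obHet_60, obHet_65 and obHet_68 for CT ob, and obHOM_106, obHOM_41 and obHOM_50 for ob/ob. The labels do not say that each library came from a separate animal, so p-values measure the spread between these libraries, which may be technical in part.

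Markers of GCs and of other ovarian cells were examined first. Of the 10 GC markers all 10 were detected, and their summed level was 7859 ± 2613 CPM in CT db, 8692 ± 2646 CPM in db/db, 7167 ± 3062 CPM in CT ob and 10619.6 ± 3424 CPM in ob/ob (mean and SD), with Inha, an inhibin subunit, holding 60.9% of it. Among them Fshr, the receptor of follicle-stimulating hormone and named here after its values were seen, was lower in CT ob than in CT db (log2 fold change -1.72, edgeR adjusted p = 0.0163), a call that was lost without obHet_68 (-1.81). No other GC marker was called there, and the others moved in both directions. Libraries differed more in the 10 oocyte markers, all 10 detected and led by Gdf9 with 29.4%, whose sum ran from 2.53 CPM in het_37 to 1035 CPM in obHet_60. This sum lay between 121 and 681 CPM in ob/ob, above the 5.54 to 61.1 CPM of db/db, and the mutants overlapped with their own controls. The 6 theca markers, led by Aldh1a1, summed to between 44.1 and 888 CPM with HOM_24 highest, and the 6 luteal markers, led by Hsd3b1 with 82.2%, to between 222 and 1326 CPM. The 6 endothelial markers, led by Pecam1, summed to 11.9 to 31.9 CPM in CT ob, above the 2.77 to 11.3 CPM of CT db. Leukocyte markers (7, led by Lyz2) reached at most 24.3 CPM and markers of stroma and smooth muscle (6, led by Acta2) at most 73.2 CPM, with overlap between groups.

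Adipocytes, which express many of the same lipid genes at high levels, were represented by 7 markers, of which 6 were detected and Retn was at 0 in every library. Their sum was at most 4.26 CPM, with Fabp4 holding 64.6% of it, and 5 of the 7 stayed at or under the floor in every library. Blood markers summed to at most 0.680 CPM, with Hba-a1 and Hba-a2 at 0. In obHet_68 the 18S ribosomal RNA gene Rn18s-rs5 took 24.5% of the counts, against 1.10% to 12.8% in the other libraries. The part of oocyte, theca, luteal, endothelial or ribosomal RNA in the results below was not tested, beyond a fit without Rn18s-rs5. In these bulk samples fewer cells of a type and less RNA per cell cannot be told apart.

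To ask how loss of the receptor or of leptin bears on these genes, each mutant group was set against its lean littermates. A gene was called when its edgeR quasi-likelihood p, adjusted over all genes tested by Benjamini-Hochberg, was at most 0.05. In db/db against CT db 36 of the 39 members passed the filter on low counts (not Elovl4, Elovl7 and Ppara) and edgeR called 0 of them, beside 0.00884% of the 11317 genes tested. At an unadjusted p under 0.05 there was 1 member, Lipe, beside 7.59% of all genes, and DESeq2 called 0 members, beside 0.389%. Mutant and control libraries overlapped for each of the 36, whereas 4.13% of all genes tested showed no overlap. In ob/ob against CT ob 38 members passed the filter (not Elovl4) and edgeR called 0, as it called 0% of the 12425 genes tested. Here 4 members, Fasn, Elovl2, Dgat2 and Plin2, had an unadjusted p under 0.05 (10.5%, beside 8.16% of all genes), and DESeq2 called 2, Elovl2 and Dgat2 (5.26%, beside 0.692%). For 6 members, Elovl2, Elovl5, Agpat2, Dgat2, Plin2 and Srebf1, no ob/ob library reached into the CT ob range, which is 15.8% of the members tested beside 15.7% of all genes.

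The groups of the models were also set side by side in a fit of all 14 libraries, in which 38 members were tested. In CT ob against CT db edgeR called 2 members, Elovl2 higher and Cd36 lower, which is 5.26% of the members beside 6.63% of the 12586 genes tested, and DESeq2 called 6, with Acsl4, Dgat2, Lipe and Pparg besides, which is 15.8% beside 12.4% of all genes. Libraries did not overlap there for 10 members (26.3%, beside 21.2% of all genes). The count of 2 called members went to 0 without het_51 (beside 1.11% of all genes) or obHet_68 (0.85%), to 1 without het_69 (3.82%), het_75 (1.61%) or obHet_60 (2.9%), to 3 without obHOM_41 (7.33%), to 5 without het_37 (9.46%), and to 0 in a fit of these groups alone (0.0253%). In ob/ob against db/db edgeR called 0 members (beside 0.0159% of all genes), 4 had an unadjusted p under 0.05, namely Elovl5, Elovl7, Cd36 and Cpt1a (beside 8.18%), DESeq2 called 1, Elovl5 (beside 0.572%), and libraries did not overlap for 4, namely Elovl5, Elovl7, Cd36 and Acadvl (10.5%, beside 9.91%). For the interaction, which is the mutant effect in the ob model minus that in the db model, edgeR called 0 members as it called 0% of all genes, Lipe alone had an unadjusted p under 0.05 (2.63%, beside 8.11%), and DESeq2 called 0 (beside 0.572%). The shares of members were thus close to those of all genes in several of these counts, and they are read only as descriptions.

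The median log2 fold change of the members was -0.01 in db/db against CT db (all genes 0.01), 0.02 in ob/ob against CT ob (all genes -0.04) and 0.01 in CT ob against CT db (all genes 0.06). In the db model 0% of the members tested lay beyond 1 on the log2 scale in either direction, beside 1.61% of all genes, and in the ob model 4 members did (10.5%, beside 5.72%), namely Elovl2, Scd1, Fabp5 and Dgat2, of which Scd1 is named after its values were seen. Without obHOM_41 only Elovl2 and Dgat2 did (5.26%, beside 5.57%), 3 did without obHet_60 (7.89%, beside 10.7%), 4 without obHet_68 (10.5%, beside 7.32%), 5 without obHOM_106 (13.2%, beside 9.56%) or obHOM_50 (13.2%, beside 9.42%) and 6 without obHet_65 (15.8%, beside 8.94%). In the db model the count was 1 without HOM_68 (Scd1; 2.7%, beside 2.77%), 1 without HOM_81 (Cd36; 2.7%, beside 2.52%) or het_37 (Cd36; 2.78%, beside 2.09%) and 2 without het_69 (Fads2 and Lipe; 5.56%, beside 2.66%). Leaving out libraries for this count was chosen after the data were seen. Comparisons of ob/ob with CT ob and of CT ob with CT db share the CT ob libraries, so a value that is particular to CT ob enters both.

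**Figure D1:**
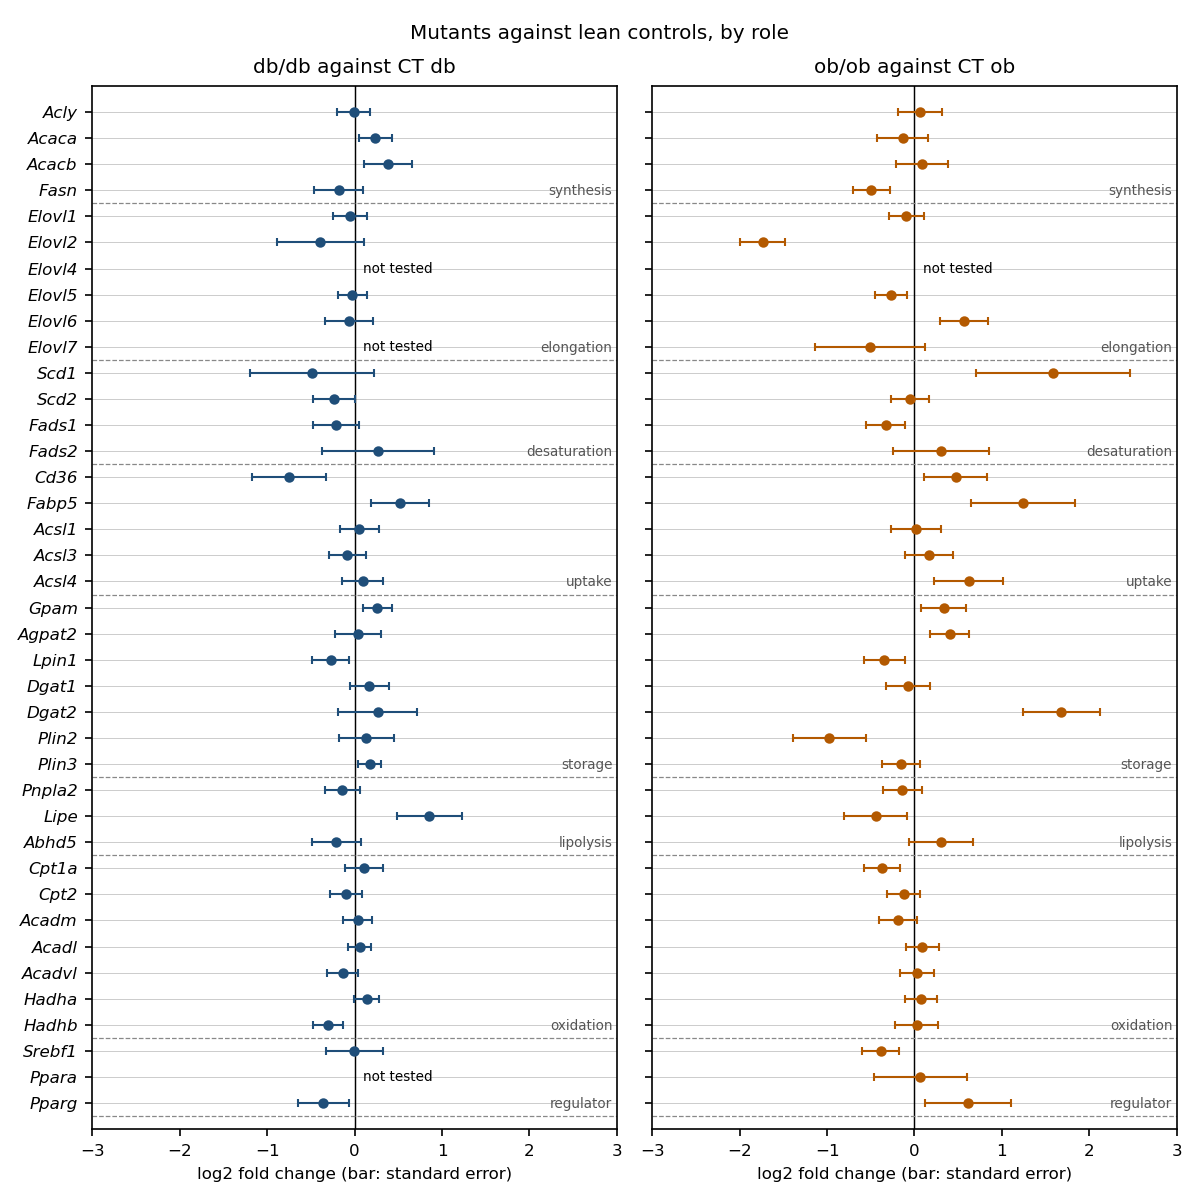
Log2 fold change (x axis) of the members tested, with all 39 listed by role from synthesis to regulators (y axis), for 36 in db/db against CT db (left, 4 against 4 libraries; Elovl4, Elovl7 and Ppara marked not tested) and 38 in ob/ob against CT ob (right, 3 against 3; Elovl4 marked not tested), with bars for the standard error of the edgeR fit. In the db model the points lie between -0.75 (Cd36) and 0.86 (Lipe), and in the ob model between -1.74 (Elovl2) and 1.68 (Dgat2), with no member called by edgeR in either.

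Fatty acid synthesis genes overlapped between mutants and controls in both models. Acly, the enzyme that splits citrate to cytosolic acetyl-CoA, stood highest per length among the 4 synthesis genes at 16.1 CPM per kb of exon over all libraries. Its level was 226, 168, 288 and 203 CPM (CT db), 201, 198, 287 and 195 CPM (db/db), 274, 263 and 202 CPM (CT ob) and 192, 343 and 241 CPM (ob/ob). The groups overlapped, and the mutant differences were -0.01 (SE 0.19) in the db model and 0.06 (SE 0.25) in the ob model on the log2 scale. Fasn, fatty acid synthase, measured 142, 54.95, 101 and 74.8 CPM (CT db), 90.4, 67.96, 113 and 58.4 CPM (db/db), 106, 160 and 159 CPM (CT ob) and 96.6, 99.6 and 107 CPM (ob/ob). In CT ob obHet_65 and obHet_68 stood above each ob/ob library and obHet_60 did not, and the log2 fold change of -0.49 (SE 0.21) had an unadjusted p of 0.0458 and an edgeR adjusted p of 0.611. For db/db it was -0.18 (SE 0.28), with an edgeR adjusted p of 0.906. The carboxylases that make malonyl-CoA, Acaca and Acacb, ranged over the libraries from 27.4 to 50.7 and from 12.9 to 38.1 CPM, and overlapped between mutants and controls in both models. Summed over the 4 genes the level was 372 ± 77.7 CPM (CT db), 373 ± 78.8 CPM (db/db), 450 ± 27.9 CPM (CT ob) and 419 ± 96.5 CPM (ob/ob) as mean and SD.

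The elongases held the member with the smallest p in the ob model. Elovl2 (ENSMUSG00000021364, chromosome 13, 41335857 to 41374112 on the minus strand of GRCm39) elongates polyunsaturated fatty acids of long chain. Its level was 21.95, 8.09, 7.97 and 5.19 CPM (CT db), 15.3, 6.88, 6.93 and 4.06 CPM (db/db), 32.2, 36.4 and 40.1 CPM (CT ob) and 12.3, 8.31 and 12.1 CPM (ob/ob). The 3 CT ob libraries lay above every library of the other 3 groups, and ob/ob lay within the range of CT db and db/db. Against CT ob the log2 fold change of ob/ob was -1.74 (SE 0.26), lower in 3 of 3 libraries, with an edgeR adjusted p of 0.539, a DESeq2 adjusted p of 5.2e-05 and 0.1 in the exact permutation test, two-sided, the smallest p that 3 against 3 libraries allow. Against CT db, CT ob was higher by 1.75 (SE 0.43) with an edgeR adjusted p of 0.03203. That call was lost on leaving out het_51 (1.63), het_69 (1.63), het_75 (1.52), obHet_60 (1.83), obHet_65 (1.74) or obHet_68 (1.66), and without het_37, the highest of CT db, the difference was 2.35. In db/db against CT db it was -0.39 (SE 0.50) with an edgeR adjusted p of 0.873, and the interaction was -1.35 (SE 0.64) with an edgeR adjusted p of 0.608. Without het_37 these were 0.21 and -1.94, and without HOM_24 -0.87 and -0.87. The summed endothelial markers were also higher in CT ob than in CT db, and within CT ob their sum was lowest (11.9 CPM) in obHet_68, the library highest in Elovl2. Of the stage markers described below, Amh was higher in CT ob than in CT db (1.31) and Inhba (-3.42) and Cyp19a1 (-1.53) lower, none of them called. Elovl2 was highest in the library highest in Amh in CT db, db/db and ob/ob, and not in CT ob. The part of these markers in Elovl2 was not tested. The difference between the models was not called, although DESeq2 called the ob comparison and not the db comparison.

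Elovl5, which elongates polyunsaturated fatty acids of shorter chain, was the elongase with the highest level per length, 40.8 CPM per kb, and held 63.3% of the summed CPM of the 6. It measured 240, 243, 271 and 319 CPM (CT db), 338, 216, 275 and 228 CPM (db/db), 194, 192 and 219 CPM (CT ob) and 145, 171 and 189 CPM (ob/ob). Each ob/ob library lay below each CT ob library and below each db/db library, and each CT ob library below each CT db library. The differences were -0.27 (SE 0.18) for ob/ob against CT ob (edgeR adjusted p = 0.713), -0.65 (SE 0.17) for ob/ob against db/db (edgeR adjusted p = 0.336, DESeq2 adjusted p = 0.04998) and -0.41 (SE 0.17) for CT ob against CT db (edgeR adjusted p = 0.151). The db/db difference was -0.03 (SE 0.17). The summed oocyte markers also separated ob/ob from db/db, and their part was not tested. Elovl7, an elongase of saturated and polyunsaturated chains, was close to the floor with 2 to 51 counts in a library. Its level was 2.53, 1.92, 4.396 and 2.18 CPM (CT db), 1.71, 1.29, 0.866 and 1.56 CPM (db/db), 9.77, 7.23 and 1.36 CPM (CT ob) and 4.14, 3.18 and 5.79 CPM (ob/ob). All 4 libraries of db/db lay under the lowest of CT db, with p = 0.0286 in the exact permutation test, two-sided, the smallest that 4 against 4 allow, but db/db held 2 to 5 counts and the gene did not pass the filter of that fit. In ob/ob against CT ob the libraries overlapped (-0.51, SE 0.63, edgeR adjusted p = 0.842, -0.01 without obHet_60 and -0.96 without obHet_68). Elovl1 and Elovl6, which act on saturated chains, ranged from 32.7 to 54.1 and from 43.7 to 111 CPM with overlap between mutants and controls. Elovl4 had 1 to 14 counts and was tested only where no filter on low counts was used. The summed level of the elongases was 400 ± 55.2 CPM (CT db), 388 ± 78.7 CPM (db/db), 345 ± 14.6 CPM (CT ob) and 310 ± 40.5 CPM (ob/ob) as mean and SD.

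**Figure D2:**
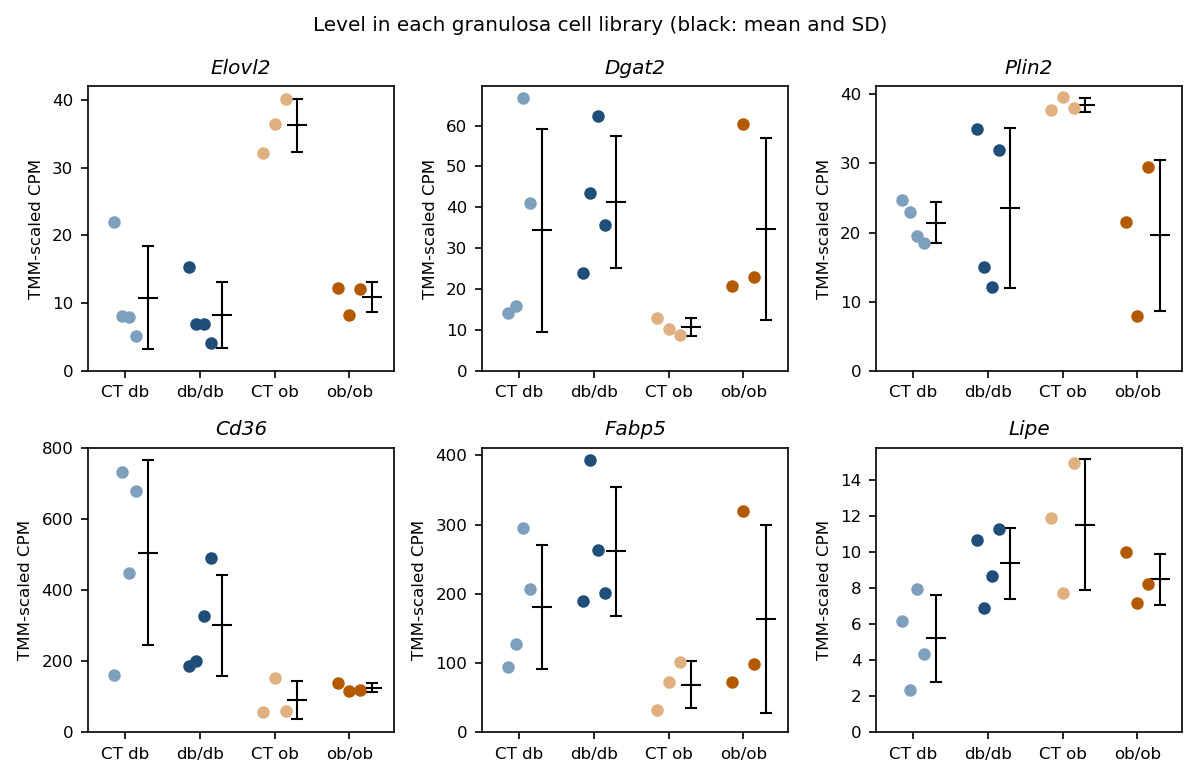
TMM-scaled CPM (y axis) of Elovl2, Dgat2, Plin2, Cd36, Fabp5 and Lipe in each library of CT db, db/db, CT ob and ob/ob (x axis), with a point for each library and black bars for the mean and SD. The 3 CT ob libraries sit between 32.2 and 40.1 CPM for Elovl2 and between 37.8 and 39.6 CPM for Plin2, above every library of the other groups, and between 8.84 and 13.0 CPM for Dgat2, below every library of them.

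Desaturation was carried at the RNA level mainly by Scd2, a stearoyl-CoA desaturase that makes monounsaturated fatty acids. Scd2 had the highest level per length of the 39 members, 237 CPM per kb, and 92.8% of the summed CPM of the 4 desaturases. Its level was 2409, 1421, 1827 and 1584 CPM (CT db), 1917, 1274, 1961 and 1003 CPM (db/db), 1624, 2131 and 2121 CPM (CT ob) and 1623, 2147 and 1914 CPM (ob/ob). The groups overlapped in each comparison, and the mutant differences were -0.24 (SE 0.24) in the db model (edgeR adjusted p = 0.838) and -0.06 (SE 0.22) in the ob model (edgeR adjusted p = 0.959). Scd1, the form known from liver and adipose tissue, was at 1.17 CPM per kb and ranged from 1.34 to 32.97 CPM, with het_69, HOM_68 and obHOM_41 highest in their groups. Scd1 and Scd2 are related genes near each other on chromosome 19, and how reads that match several places were counted is not given in the sources used here. Fads1 and Fads2, the desaturases of polyunsaturated fatty acid synthesis, ranged from 56.8 to 147 and from 9.37 to 56.6 CPM, and for both the mutants overlapped with their controls. The summed level was 1947 ± 443 CPM (CT db), 1663 ± 529 CPM (db/db), 2115 ± 315 CPM (CT ob) and 2036 ± 314 CPM (ob/ob) as mean and SD.

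Uptake and carriage genes had a lower summed level, on average, in the groups of the ob model than in those of the db model. Cd36 held 47.7% of that sum. In CT db and CT ob the means were 181 and 68.8 CPM for Fabp5, 85.3 and 42.9 CPM for Acsl4, 39.6 and 37.1 CPM for Acsl3 and 13.4 and 14.7 CPM for Acsl1. Cd36 (ENSMUSG00000002944, chromosome 5, 17986432 to 18094067 on the minus strand of GRCm39) encodes a membrane receptor that takes up long-chain fatty acids and also binds oxidised lipoprotein and thrombospondin. It measured 162, 733, 448 and 681 CPM (CT db), 188, 200, 328 and 492 CPM (db/db), 58.8, 152 and 60.2 CPM (CT ob) and 140, 118 and 120 CPM (ob/ob). Each CT ob library lay below each CT db library and each ob/ob library below each db/db library, while mutants and controls overlapped within both models. CT ob was lower than CT db, with a log2 fold change of -2.48 (SE 0.50) and an edgeR adjusted p of 0.0163. The call was lost without het_51 (-2.25) or obHet_68 (-2.28), and the difference was -3.09 without obHet_65. The difference of ob/ob from db/db was -1.26 (SE 0.47) (edgeR adjusted p = 0.453). Within the models it was -0.75 (SE 0.42) for db/db (edgeR adjusted p = 0.705) and 0.47 (SE 0.36) for ob/ob (edgeR adjusted p = 0.747), and the interaction of 1.22 (SE 0.65) was not called (edgeR adjusted p = 0.6402). The ob/ob difference was 0.23 without obHet_60, 0.25 without obHet_68 and 1.08 without obHet_65, and the interaction lay between 0.98 (without obHet_60) and 1.82 (without obHet_65). For db/db it lay between -1.09 (without HOM_81) and -0.51 (without het_51). The summed endothelial markers moved the other way between the controls. Of the GC markers Fshr (-1.72), Inhba (-3.42), Cyp19a1 (-1.53), Inhbb (-1.06) and Nr5a2 (-0.22) were also lower in CT ob than in CT db. Amh (1.31), Amhr2 (0.88), Foxl2 (0.57), Inha (0.06) and Hsd17b1 (0.01) were higher, and Fshr alone was called. The part of these markers in the difference of Cd36 was not tested.

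Fabp5, a cytosolic fatty acid carrier, was the highest of the uptake genes per length (48.1 CPM per kb). Its level was 94.3, 128, 296 and 208 CPM (CT db), 190, 393, 263 and 202 CPM (db/db), 32.96, 72.5 and 101 CPM (CT ob) and 72.5, 319 and 98.4 CPM (ob/ob). In ob/ob the library obHOM_41 stood above every CT ob library while obHOM_106 and obHOM_50 lay within the CT ob range, and the log2 fold change of 1.24 (SE 0.60) (edgeR adjusted p = 0.638) was 0.32 without obHOM_41 and 1.64 without obHet_68. Libraries of the db model overlapped (0.53, SE 0.33, edgeR adjusted p = 0.732, 0.26 without HOM_53 and 0.85 without het_69). The acyl-CoA synthetases Acsl1, Acsl3 and Acsl4, which activate fatty acids, ranged from 10.1 to 17.7, from 23.1 to 48.4 and from 26.2 to 112 CPM, with overlap between mutants and controls. Acsl4, which prefers arachidonic acid and is named after its values were seen, was lower in CT ob than in CT db by DESeq2 (adjusted p = 0.0398) and not by edgeR (adjusted p = 0.0900, log2 fold change -0.98). Of the 5 log2 fold changes of this role, none of them called, 5 were above 0 in ob/ob against CT ob (median 0.47, all genes -0.04), as were 46% of all genes, and 3 were above and 2 below 0 in db/db against CT db. Above 0 were 4 without obHOM_106, obHOM_41 or obHet_60 and 3 without obHet_68, and the median was 0.17 without obHOM_41 and 1.004 without obHet_65. Leaving out libraries for this count was chosen after the data were seen. Summed over the role the level was 826 ± 317 CPM (CT db), 707 ± 136 CPM (db/db), 254 ± 82.8 CPM (CT ob) and 412 ± 164 CPM (ob/ob) as mean and SD, and het_37 with 357 CPM was the lowest of CT db.

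Of the storage genes edgeR called none in the ob model. Dgat2, Agpat2 and Plin2 were among the 6 members without overlap there, whose share of the members (15.8%) was that of all genes (15.7%). Dgat2 (ENSMUSG00000030747, chromosome 7, 98802491 to 98831991 on the minus strand of GRCm39) encodes an acyltransferase of the last step of triglyceride synthesis. Its level was 14.1, 15.8, 66.8 and 40.9 CPM (CT db), 23.9, 43.4, 62.3 and 35.6 CPM (db/db), 13.03, 10.2 and 8.84 CPM (CT ob) and 20.7, 60.4 and 23.03 CPM (ob/ob). The 3 CT ob libraries were below every library of the other groups, and obHOM_41 stood far above the other ob/ob libraries, as het_69 and HOM_68 were highest in CT db and db/db. The difference of ob/ob from CT ob was 1.68 (SE 0.44) on the log2 scale, higher in 3 of 3 libraries, with an edgeR adjusted p of 0.539, a DESeq2 adjusted p of 0.0458 and an exact permutation p of 0.1, two-sided, the smallest that 3 against 3 libraries allow. Without obHOM_41 it was 1.02, and without obHOM_106 1.95. CT ob against CT db gave -1.66 (SE 0.55) with an edgeR adjusted p of 0.0758 and a DESeq2 adjusted p of 0.0157, and db/db against CT db gave 0.26 (SE 0.45) with an edgeR adjusted p of 0.915. The db/db value was 0.0004 without HOM_68, 0.008 without het_37, 0.02 without het_51 and 0.79 without het_69. The interaction was 1.41 (SE 0.73) with an edgeR adjusted p of 0.632, 0.75 without obHOM_41, 0.88 without het_69 and 1.68 without HOM_68. The stage markers Inhba and Cyp19a1, described below, were also higher in ob/ob than in CT ob and lower in CT ob than in CT db without being called, and their part in Dgat2 was not tested.

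Plin2, a protein that coats lipid droplets, measured 24.8, 23, 19.5 and 18.6 CPM (CT db), 34.95, 15.1, 12.1 and 31.9 CPM (db/db), 37.8, 39.6 and 38.1 CPM (CT ob) and 21.6, 7.89 and 29.4 CPM (ob/ob). CT ob lay above every library of the other groups and had the smallest spread, and ob/ob was lower than CT ob in 3 of 3 libraries. That difference was -0.97 (SE 0.42) with an unadjusted p of 0.0475 and an edgeR adjusted p of 0.611, and without obHOM_41, the lowest ob/ob library, it was -0.59, and without obHOM_50 -1.39. The db/db difference was 0.14 (SE 0.31), and HOM_24 and HOM_81 lay above all CT db libraries while HOM_53 and HOM_68 lay below them. Agpat2, an acyltransferase that makes phosphatidic acid, measured 31.2, 15.97, 18.4 and 22.4 CPM (CT db), 28.1, 26.7, 21.2 and 15 CPM (db/db), 17.6, 17.9 and 17.7 CPM (CT ob) and 23.6, 22.2 and 25 CPM (ob/ob). The ob/ob libraries stood above the CT ob libraries by 0.41 (SE 0.22) (edgeR adjusted p = 0.674), within the range of CT db and db/db. Gpam, the mitochondrial acyltransferase of the first step of glycerolipid synthesis, was the storage gene with the highest level per length (11.02 CPM per kb). It measured 123, 94.1, 147 and 101 CPM (CT db), 139, 150, 154 and 117 CPM (db/db), 92.2, 115 and 116 CPM (CT ob) and 101, 189 and 119 CPM (ob/ob). Mutants overlapped with controls in both models, with 0.26 (SE 0.16) for db/db (edgeR adjusted p = 0.729) and 0.33 (SE 0.26) for ob/ob (edgeR adjusted p = 0.746), which was 0.03 without obHOM_41 and 0.51 without obHOM_106. Dgat1, Lpin1 and Plin3 ranged from 24.1 to 46.04, from 27.3 to 79.2 and from 49.5 to 84.3 CPM with overlap between mutants and controls. The summed level of the 7 genes was 320 ± 50.9 CPM (CT db), 357 ± 24.3 CPM (db/db), 337 ± 43.1 CPM (CT ob) and 355 ± 67.8 CPM (ob/ob) as mean and SD, with Gpam holding 36.7% of it. Between CT ob and ob/ob the means of Gpam were 108 and 136 CPM, those of Dgat2 10.7 and 34.7 CPM and those of Plin2 38.5 and 19.6 CPM.

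Among the lipolysis genes Lipe (1.42 CPM per kb) and Abhd5 (1.24 CPM per kb) were low. Pnpla2, the lipase of the first step of triglyceride breakdown, was the highest of the 3 per length (9.11 CPM per kb). It measured 37.2, 31.3, 37.4 and 46.4 CPM (CT db), 45.6, 30.1, 35.5 and 27.5 CPM (db/db), 28.7, 39.4 and 42.5 CPM (CT ob) and 33.6, 31.6 and 35.5 CPM (ob/ob). The groups overlapped, with -0.14 (SE 0.20) in the db model (edgeR adjusted p = 0.889) and -0.14 (SE 0.22) in the ob model (edgeR adjusted p = 0.884). Lipe, hormone-sensitive lipase, had 11 to 67 counts in a library and measured 6.19, 2.34, 7.97 and 4.37 CPM (CT db), 10.7, 6.88, 8.66 and 11.2 CPM (db/db), 11.9, 7.72 and 14.96 CPM (CT ob) and 10.01, 7.2 and 8.25 CPM (ob/ob). In the db model 3 of 4 mutant libraries stood above every CT db library, with a log2 fold change of 0.86 (SE 0.38), an unadjusted p of 0.0419 and an edgeR adjusted p of 0.646, and in the ob model the difference was -0.44 (SE 0.36) with an edgeR adjusted p of 0.754. With each library left out the difference in the ob model lay between -0.66 and -0.21. The interaction for Lipe, -1.30 (SE 0.53), had an unadjusted p of 0.0275 and an edgeR adjusted p of 0.557. Abhd5, the coactivator of Pnpla2, ranged from 4.42 to 13.5 CPM with overlap. Summed levels were 53.5 ± 6.99 CPM (CT db), 52.97 ± 9.25 CPM (db/db), 55.4 ± 6.502 CPM (CT ob) and 50.8 ± 3.38 CPM (ob/ob) as mean and SD.

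Oxidation genes differed little between mutants and controls. Their 7 log2 fold changes ran from -0.31 to 0.14 in db/db against CT db and from -0.37 to 0.09 in ob/ob against CT ob, with medians of 0.04 and 0.03, and the libraries of mutants and controls overlapped for each of the 7. Acadl, the long-chain acyl-CoA dehydrogenase, was the highest per length (32.5 CPM per kb). It measured 125, 138, 135 and 137 CPM (CT db), 161, 134, 117 and 147 CPM (db/db), 118, 123 and 88.7 CPM (CT ob) and 105, 118 and 129 CPM (ob/ob). Each CT ob library was below each CT db library (-0.28, SE 0.15, edgeR adjusted p = 0.254), and the mutant differences were 0.06 (SE 0.13) and 0.09 (SE 0.19) in the db and ob models. Hadhb, the thiolase subunit of the trifunctional protein, measured 86.7, 125, 120 and 136 CPM (CT db), 107, 77.4, 87.03 and 107 CPM (db/db), 111, 118 and 72.1 CPM (CT ob) and 115, 80.3 and 114 CPM (ob/ob). Its libraries overlapped in both models, with -0.31 (SE 0.17) for db/db (edgeR adjusted p = 0.705) and 0.03 (SE 0.24) for ob/ob (edgeR adjusted p = 0.985). Cpt1a and Cpt2, the carnitine palmitoyltransferases of the outer and inner mitochondrial membrane, ranged from 63.97 to 150 and from 34.6 to 65.7 CPM. The dehydrogenases Acadm and Acadvl ranged from 40.99 to 76.7 and from 29.7 to 51.6 CPM, and Hadha, the other subunit of the trifunctional protein, from 151 to 204 CPM. Summed over the role the level was 681 ± 66.3 CPM (CT db), 685 ± 84.2 CPM (db/db), 646 ± 77.7 CPM (CT ob) and 631 ± 75.8 CPM (ob/ob) as mean and SD.

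Among the transcription factors Pparg, a nuclear receptor known for adipocyte differentiation and also expressed in GCs, had the highest level per length (13.8 CPM per kb). It measured 113, 79.9, 207 and 121 CPM (CT db), 66.5, 139, 121 and 82.2 CPM (db/db), 55.8, 76.98 and 29.2 CPM (CT ob) and 52.8, 149 and 47.9 CPM (ob/ob). CT ob lay below CT db without overlap (-1.26, SE 0.44, edgeR adjusted p = 0.08995, DESeq2 adjusted p = 0.0283), and mutants overlapped with controls, with -0.36 (SE 0.29) in the db model (edgeR adjusted p = 0.796) and 0.61 (SE 0.49) in the ob model (edgeR adjusted p = 0.751), which was -0.11 without obHOM_41 and 0.96 without obHet_65. In the db model it was -0.05 without het_69 and -0.54 without HOM_53. Srebf1, which drives lipogenic genes, measured 34.3, 21.1, 56.3 and 40.9 CPM (CT db), 40.5, 39.1, 54.1 and 19.4 CPM (db/db), 63.05, 65.8 and 63.9 CPM (CT ob) and 37.8, 60.1 and 49.9 CPM (ob/ob). Its CT ob libraries stood above each ob/ob library and each CT db library, and the differences were -0.39 (SE 0.21) for ob/ob against CT ob (edgeR adjusted p = 0.667) and 0.76 (SE 0.31) for CT ob against CT db (edgeR adjusted p = 0.138). The db/db difference was -0.004, with an edgeR adjusted p of 0.998. Ppara, known as a driver of oxidation genes, was low at 1.37 to 5.37 CPM and did not pass the filter in the db model or in the fit of CT ob and CT db alone.

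Libraries of a group differed among themselves in a way that several members shared, which was noticed after their values were seen. The library highest in Cyp19a1, aromatase, was also the highest in Inhba, an inhibin and activin subunit, in CT db (het_69), db/db (HOM_68) and ob/ob (obHOM_41). In het_69 Cyp19a1 was at 106 CPM against 15.5 to 29.8 CPM in the other CT db libraries, in HOM_68 at 105 CPM against 6.56 to 23.2 CPM, and in obHOM_41 at 83.6 CPM against 17.9 and 32.8 CPM. Of the 38 members tested 21 had their highest CT db level in het_69 (55.3%, beside 25.1% of all genes), 16 their highest db/db level in HOM_68 (42.1%, beside 24.5%) and 17 their highest ob/ob level in obHOM_41 (44.7%, beside 38.6%). Scd1, Fads2, Dgat2, Acly, Elovl6, Fads1, Acsl3, Gpam and Srebf1 were among them in all 3 groups. The share of all genes for which this held in all 3 groups was not computed. In db/db some of these leads of HOM_68 were small. Fads2 was at 46.8 CPM against 45.6 CPM in HOM_24, Acsl3 at 42.9 against 42.6 CPM in HOM_24, and Gpam at 154 against 150 CPM in HOM_53. In CT ob the markers pointed to different libraries, with Cyp19a1 highest in obHet_65 at 17.7 CPM, where 15 members were highest (39.5%, beside 27.1%), and Inhba in obHet_68, where 14 were (36.8%, beside 40.1%). By Amh, a hormone of earlier follicle stages, the highest libraries were het_37 with 6 members (15.8%, beside 28.3%), HOM_24 with 11 (28.9%, beside 28.2%), obHet_65 with 15 (39.5%, beside 27.1%) and obHOM_106 with 6 (15.8%, beside 30.8%). No test was made of these counts. Between groups Inhba gave a log2 fold change of 2.88 in ob/ob against CT ob (edgeR adjusted p = 0.604), -3.42 in CT ob against CT db (0.119) and -0.14 in db/db against CT db (0.98). For Cyp19a1 these were 1.59 (0.561), -1.53 (0.255) and -0.17 (0.97), and for Amh -0.52 (0.851), 1.31 (0.25) and -1.29 (0.667). Above 0 in ob/ob against CT ob and below 0 in CT ob against CT db, as Inhba and Cyp19a1 were, were 15 of the 38 members (39.5%, beside 35.5% of all genes), among them Cd36, Fabp5, Dgat2 and Pparg, and 14 members, among them Elovl2, Plin2, Srebf1 and Fasn, had both signs the other way (36.8%, beside 44.2%). Leaving out libraries, chosen after the data were seen, gave 12 (without het_69; 31.6%, beside 35% of all genes) to 16 members with the signs of these markers. There were 16 without het_37, het_51 or obHet_65 (42.1%, beside 35.5%, 35.2% and 37.9%), and without obHet_68 the share was 34.2%, beside 38.1%. Both signs the other way were held by 13 (without het_37; 34.2%, beside 44.2%) to 17 members (without het_75; 44.7%, beside 44.2%). The part of follicle stage in the differences between groups was not tested.

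**Figure D3:**
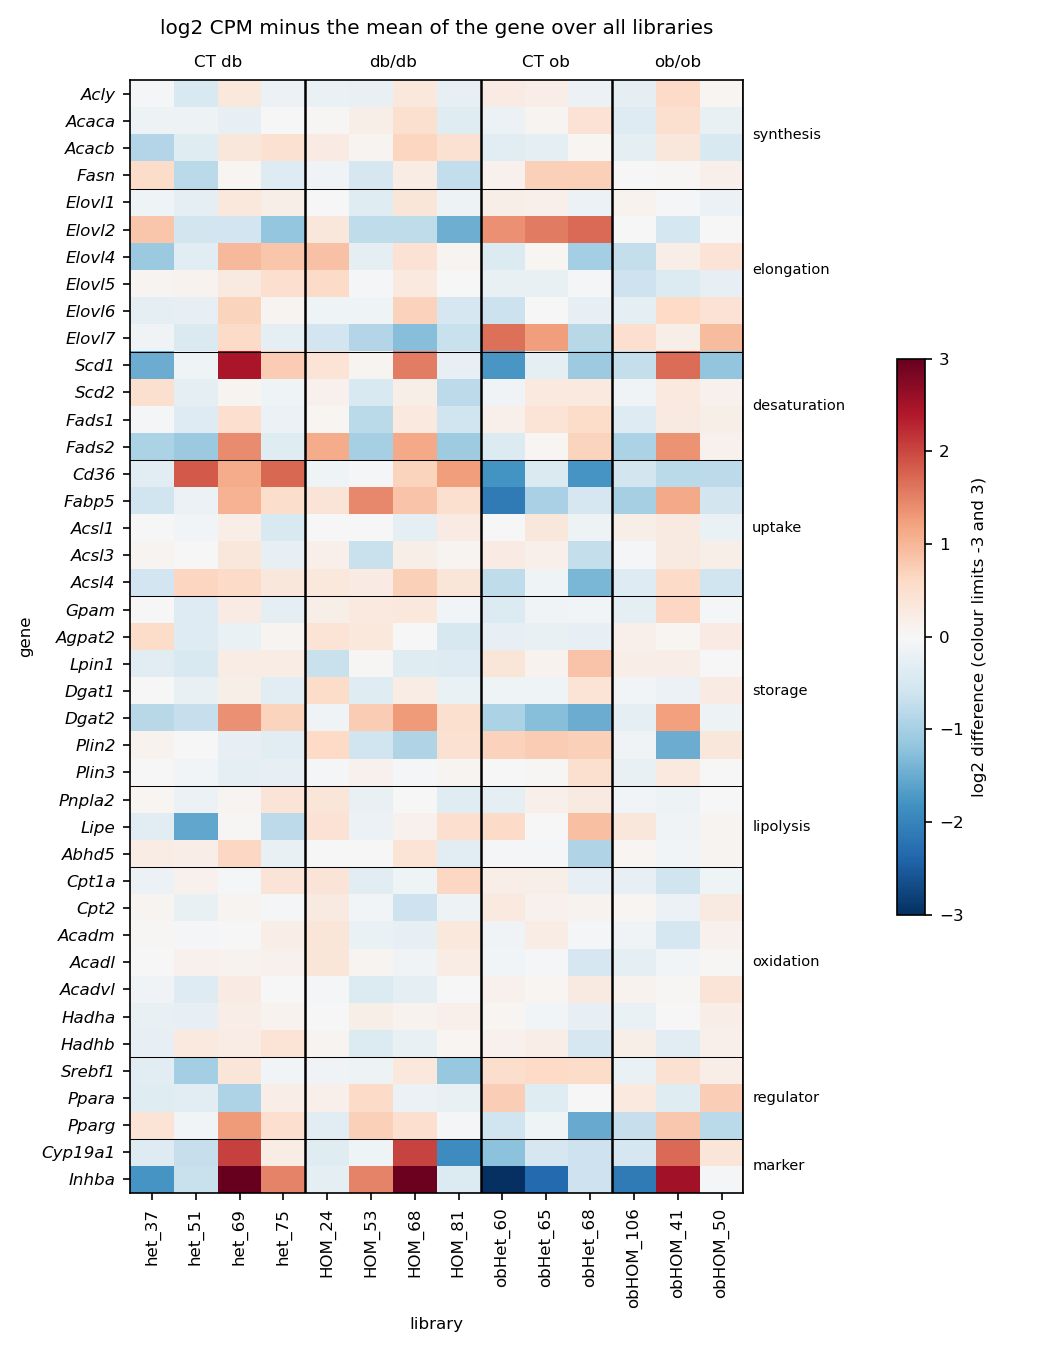
Log2 CPM (prior count 2) minus the mean of the gene over all libraries, as colour, for the 39 members by role and the markers Cyp19a1 and Inhba (y axis) in the 14 libraries by group (x axis). Colours end at -3 and 3 while the values run from -3.45 to 3.25, and the columns of het_69, HOM_68 and obHOM_41 are red for Scd1, Fads2 and Dgat2 as for Cyp19a1 and Inhba.

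Other genes of the same pathway were counted from a list of 81, of which 53 were tested in the db model, 54 in the ob model and 56 in the fit of all libraries. In db/db against CT db edgeR called 0 of them (beside 0.00884% of all genes), 5 had an unadjusted p under 0.05 (9.43%, beside 7.59%) and DESeq2 called 0 (beside 0.389%). The 3 smallest p belonged to Agpat5, an acyltransferase of phosphatidic acid synthesis, Acsl5, an acyl-CoA synthetase, and Hsd17b12, a reductase of the elongation cycle. Agpat5 measured 66.99, 60.9, 68.1 and 62.5 CPM in CT db and 55.4, 41.3, 36.8 and 43.1 CPM in db/db, without overlap (-0.55, SE 0.15, edgeR adjusted p = 0.433). Acsl5 was at 47.8, 38.6, 29.1 and 34.7 CPM and 28.1, 21.9, 13.4 and 28.1 CPM, also without overlap (-0.71, SE 0.24, edgeR adjusted p = 0.558), and Hsd17b12 gave -0.54 (SE 0.21) with an edgeR adjusted p of 0.597. In ob/ob against CT ob edgeR called 0 (as 0% of all genes), 3 had an unadjusted p under 0.05 (5.56%, beside 8.16%) and DESeq2 called 0 (beside 0.692%). Of their log2 fold changes 27 of 53 were above 0 in the db model (50.9%, beside 51.6% of all genes), 14 of 54 in the ob model (25.9%, beside 46%) and 38 of 56 in CT ob against CT db (67.9%, beside 54.1%), where the CT ob libraries are shared. With libraries left out, chosen after the data were seen, 23 to 30, 16 to 20 and 33 to 39 were above 0, and without obHet_68 the last share was 55.9%, beside 50.1%. In the ob model each such share was above 25.9%, from 29.6% (without obHOM_50, beside 47.2% of all genes) to 37% (without obHet_60, beside 48.5%). In the db model the shares ran from 44.2% (without het_51, beside 50.6%) to 55.6% (without HOM_81, beside 51.2%). Vldlr, a receptor of triglyceride-rich lipoprotein, measured 7.28, 15.7 and 15.98 CPM in CT ob and 24.2, 182 and 23.6 CPM in ob/ob. The ob/ob libraries stood above CT ob, with obHOM_41 far above the rest (2.57, SE 0.83, edgeR adjusted p = 0.561). Hacd3, a dehydratase of the elongation cycle, was lower without overlap (-0.69, SE 0.26, edgeR adjusted p = 0.585), and Acaa2, the mitochondrial thiolase, gave -0.50 (SE 0.22) with an edgeR adjusted p of 0.611.

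Between the controls edgeR called 4 of the 56 other genes, 3 higher and 1 lower in CT ob (7.14%, beside 6.63% of all genes), 11 had an unadjusted p under 0.05 (19.6%, beside 26.9%) and DESeq2 called 5 (8.93%, beside 12.4%). The shares were thus near or below those of all genes. Higher were Acaa2 (0.89, SE 0.21, edgeR adjusted p = 0.0279), Acss2, which makes acetyl-CoA from acetate (1.25, SE 0.35, edgeR adjusted p = 0.0456), and Bscl2, seipin of lipid droplet formation (0.73, SE 0.21, edgeR adjusted p = 0.0474). Agpat5 was lower, at 39.3, 36.4 and 37.7 CPM in CT ob, with a log2 fold change of -0.77 (SE 0.18) and an edgeR adjusted p of 0.029. None of the 4 was called without het_51 (Acaa2 0.86, Acss2 1.26, Bscl2 0.65 and Agpat5 -0.80), without het_75 (0.81, 1.13, 0.73 and -0.78) or without obHet_68 (0.86, 1.196, 0.39 and -0.78). The calls were also lost for Acaa2 without obHet_60 (0.78), for Agpat5 without het_69 (-0.75), obHet_60 (-0.80) or obHet_65 (-0.75), for Acss2 without any library other than obHOM_41 or obHet_65 (0.81 to 1.43), and for Bscl2 without het_37 (0.72), any db/db library (0.73), obHOM_106 (0.73) or obHOM_50 (0.73). Over all genes the count of calls went from 834 to 138 without het_51 and to 112 without obHet_68. In a fit of CT ob and CT db alone edgeR called 0 genes higher and 3 lower, so Acaa2, Acss2 and Bscl2 were not called there. In ob/ob against db/db edgeR called 0 of the 56 (beside 0.0159%), 2 had an unadjusted p under 0.05 (3.57%, beside 8.18%) and DESeq2 called 0 (beside 0.572%). For the interaction edgeR called 0 (as 0% of all genes), 3 had an unadjusted p under 0.05 (5.36%, beside 8.11%) and DESeq2 called 0 (beside 0.572%).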

How the data were processed

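RNA-seq of GCs from 14 libraries in 4 groups was used. The authors deposited raw counts per gene, with processing notes that list FastQC, Trim Galore 0.6.2, HISAT2 2.1.0 and GRCm38, whereas the methods of the paper name cutadapt, STAR, featureCounts and GRCm39. Which holds was not settled. Columns were assigned to groups through the study's first supplementary sheet, and all 14 were used. Symbols, positions and exon lengths came from GENCODE M39, which held 98.8% of the 55414 genes.

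Counts were filtered with filterByExpr (minimum count 10, minimum total 15), TMM-scaled and tested by edgeR 4.0.16 quasi-likelihood fits under R 4.3.3 with limma 3.58.1, in a fit for each model and a fit of all 14 libraries for the comparisons between models and the interaction. Scripts were tested on simulated data. Levels, overlap and exact permutation tests used the TMM-scaled CPM of all 14 libraries. Alternatives were DESeq2 1.42.0, RLE scaling, library totals only, tests without a filter, a filter of 10 or more counts in each library, removal of Rn18s-rs5, other groupings of the fits and each library left out.

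Members named with all their values were the genes the study names, those with the 5 smallest p within each model, those called, those without overlap within a model, and the highest per length in each role. Members and lists were chosen with earlier results of these data known.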

Additional observations from a re-analysis of the deposited data

Results flagged for a closer look

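In 4 of 94 groups of values examined, each with 4 libraries, a library lay far from the others by Dixon's 95% limit on the gap as a share of the range. Chance alone gives about 0.05 of such groups. Acly in db/db was highest in HOM_68 at 287 CPM, Fads2 in CT db was highest in het_69 at 56.6 CPM, Acsl3 in db/db was lowest in HOM_53 at 23.7 CPM, and the summed level of the uptake genes in CT db was lowest in het_37 at 357 CPM. HOM_68 and het_69 were also the libraries highest in Cyp19a1 and Inhba within their groups. The cause was not tested.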

How the results depend on the processing

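The member count of 0 in each mutant comparison and for the interaction held under RLE scaling, library totals only, at least 10 counts in every library, no Rn18s-rs5 and each library left out. Without a filter on low counts, with 39 members tested, edgeR called 1 member in db/db against CT db (Cd36; 2.56%, beside 0.947% of all genes), 3 in ob/ob against CT ob (Dgat2, Elovl2 and Fabp5; 7.69%, beside 1.12%), 8 in CT ob against CT db (Acsl4, Cd36, Dgat2, Elovl2, Fabp5, Pparg, Scd1 and Srebf1; 20.5%, beside 4.97%), 1 in ob/ob against db/db (Cd36; 2.56%, beside 1.54%) and 2 for the interaction (Cd36 and Dgat2; 5.13%, beside 0.947%). DESeq2 called 2 in ob/ob against CT ob, 6 in CT ob against CT db and 1 in ob/ob against db/db. In CT ob against CT db the count was 0 in a fit of these groups alone and 0 to 5 with a library left out, and members without overlap were 6 in place of 10 with library totals only (15.8%, beside 18.4% of all genes), as they were 5 in place of 6 in ob/ob against CT ob (13.2%, beside 12.9%). Under that scaling Cd36, Dgat2, Cpt2, Acadl, Srebf1 and Pparg overlapped between the controls, while Fabp5 and Lipe no longer did. In ob/ob against CT ob Elovl5 and Srebf1 then overlapped, while Fasn no longer did. Over all genes edgeR called 1 in db/db against CT db, against 44 by DESeq2, 2 with library totals only, 270 without a filter, 0 with at least 10 counts in every library, 0 in the fit of all 14 libraries and 4 without HOM_68. For ob/ob against CT ob it called 0, against 86 by DESeq2, 359 without a filter and 1 in the fit of all 14 libraries. For CT ob against CT db it called 834, against 1563 by DESeq2, 261 with library totals only, 1727 without a filter, 3 in a fit of these groups alone, 138 without het_51, 482 without het_69, 201 without het_75, 376 without obHet_60 and 112 without obHet_68. For ob/ob against db/db it called 2, against 72 by DESeq2, 535 without a filter, 1 with at least 10 counts in every library, 4 in a fit of these groups alone and 3 without het_69. For the interaction it called 0, against 72 by DESeq2, 329 without a filter and 1 without HOM_24. Scaling moved the median log2 fold change of all genes by at most 0.077. With library totals only the sign turned for Acly (0.053), Elovl5 (0.030) and Srebf1 (0.054) in db/db against CT db and for Scd2 (0.036) in ob/ob against CT ob. With each library left out the sign turned for uncalled differences, given as lowest and highest log2 fold change. These were in db/db against CT db Acly -0.16 and 0.13, Fasn -0.37 and 0.095, Elovl2 -0.87 and 0.21, Elovl5 -0.17 and 0.068, Agpat2 -0.087 and 0.26, Plin2 -0.11 and 0.35, Acadl -0.020 and 0.13, and Srebf1 -0.22 and 0.23. For ob/ob against CT ob they were Acly -0.19 and 0.24, Scd2 -0.17 and 0.046, Acadl -0.038 and 0.18, Hadhb -0.16 and 0.18, and Pparg -0.11 and 0.96. In CT ob against CT db they were Gpam -0.19 and 0.019, and Pnpla2 -0.17 and 0.11. For ob/ob against db/db they were Acly -0.027 and 0.41, Gpam -0.34 and 0.14, Agpat2 -0.10 and 0.18, Dgat2 -0.92 and 0.018, Plin2 -0.69 and 0.11, and Pnpla2 -0.14 and 0.12. For the interaction they were Acly -0.18 and 0.25, Fabp5 -0.21 and 1.13, Gpam -0.23 and 0.25, Pnpla2 -0.15 and 0.16, and Acadl -0.080 and 0.12. The cause was not tested. No paired analysis was possible because the columns carry no replicate numbers that match those of the labels. With 3 or 4 libraries in a group and differing depth, genes of few counts such as Elovl4, Elovl7 and Ppara were tested in part or not at all wherever low counts were filtered.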
